A study of Mus musculus with 6 samples.

Results

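Endothelial identity genes encode proteins by which the inner lining of blood vessels is recognised: adhesion molecules, junction proteins, surface receptors and secreted factors. The genes described here are Pecam1, Cdh5, Vwf, Plvap, Cldn5, Esam, Eng, Emcn, Egfl7 and Robo4. All probe sets annotated to exactly 1 of these symbols were taken, which gave 15 probe sets for 10 genes, of 22626 probe sets and 12393 genes on the array. All 10 genes had a probe set above the dim level, a log2 value of 6.09 below which the lowest 30% of probe sets lie.

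Tumours of 4T1 cells, which derive from a mouse mammary carcinoma, were compared. In 3 of them the cells carried short hairpin RNAs against Bptf, delivered with the retrovirus MMLV (Bptf KD), and 3 grew from control cells. Both kinds of cell were injected into the mammary fat pad of mice given as Ifrg2r -/- (NSG), a strain without T cells, B cells or natural killer cells, and the tumours were collected after 21 days. Bptf is the largest subunit of the chromatin remodelling complex NURF, and the series asks how NURF depletion changes what the immune system can see of a tumour. The hairpins went into the tumour cells before injection, so vessels that grew in from the host are not the cells that received them. The sources used here do not say what the control cells carried, how old the mice were or how much stroma each piece held. Necrotic tissue was dissected away where present.

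Endothelial cells join at their borders through adherens junctions, built on VE-cadherin, and through tight junctions, in which claudin-5 is the main claudin. Vessels also differ along the tree: von Willebrand factor is typical of veins and larger vessels, and the diaphragms that span caveolae and fenestrae of permeable capillaries are built from the protein of Plvap. Tumour vessels are known for uneven calibre, leaky junctions and mixed arterial and venous features.

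RefSeq promoters (GRCm38.p6, 300 bases across a gene's start) were at hand for 5 of the 10 genes, Cldn5, Egfl7 (3 starts), Emcn, Eng and Robo4. The 3 below are shown for these reasons. Cldn5 is the gene whose brightest probe set was higher in every Bptf KD tumour than in every control. Emcn and Egfl7 are the other genes with positive differences on every probe set above the dim level, also without Control 2. Capitals mark AGGAAG or its reverse complement CTTCCT, letters that hold the core GGAA bound by ETS factors such as Erg and Fli1, which drive many endothelial genes.
Cldn5, chr16:18776597-18776896, + strand: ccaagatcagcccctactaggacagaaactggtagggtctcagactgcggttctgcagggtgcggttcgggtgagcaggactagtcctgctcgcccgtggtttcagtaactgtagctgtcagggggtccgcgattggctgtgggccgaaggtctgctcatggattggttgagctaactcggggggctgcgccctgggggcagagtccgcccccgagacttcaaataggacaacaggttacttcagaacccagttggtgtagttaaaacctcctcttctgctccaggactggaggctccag
Emcn, chr3:137340828-137341127, + strand: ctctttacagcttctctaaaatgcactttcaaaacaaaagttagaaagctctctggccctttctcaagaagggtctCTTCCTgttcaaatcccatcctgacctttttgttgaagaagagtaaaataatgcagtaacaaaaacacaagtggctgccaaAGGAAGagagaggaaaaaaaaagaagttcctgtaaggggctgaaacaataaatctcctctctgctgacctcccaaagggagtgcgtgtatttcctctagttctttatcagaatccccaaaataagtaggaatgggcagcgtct
Egfl7, chr2:26580833-26581132, + strand: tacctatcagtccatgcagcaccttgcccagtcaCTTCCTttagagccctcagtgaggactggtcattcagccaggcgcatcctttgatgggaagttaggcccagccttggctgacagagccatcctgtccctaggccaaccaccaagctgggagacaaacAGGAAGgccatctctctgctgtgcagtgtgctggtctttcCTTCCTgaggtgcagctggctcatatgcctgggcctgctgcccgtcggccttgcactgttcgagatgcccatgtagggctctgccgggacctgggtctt
On both strands, AGGAAG occurred in 35.4% of all 32851 promoters of this length, and in 5 of the 7 promoters of these genes. By gene, 4 of the 5 had a match in at least 1 promoter, where Egfl7 counts with 3 starts. The Emcn promoter shown held it 2 times. The Egfl7 promoter shown held it 3 times, the most of its 3 starts, and the others held it 2 and 0 times. CGGAAG occurred in 16.9% of all promoters and in 0 of the 7 of these genes. The Cldn5 window holds no GGAA on either strand, which is true of 4.02% of all promoters, and AGGAAG and CGGAAG both contain GGAA. A match is a description of letters only.

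The RNA of each tumour was read on 1 Affymetrix array, and the values are log2 levels. Median log2 levels were 7.65 to 7.70 in Bptf KD tumours and 7.60 to 7.70 in controls. The tumour labelled control 2 stood apart: across genes, which are not independent replicates, it correlated with the other controls at 0.934 to 0.939, while controls 1 and 3 correlated at 0.986 and the Bptf KD tumours with each other at 0.984 to 0.988. Its mean level of 12 skeletal muscle genes was 11.9, against 6.11 to 9.53 in Bptf KD tumours, 9.13 in control 1 and 6.35 in control 3. The brightest Bptf probe set read 9.60, 9.56 and 9.99 in the Bptf KD tumours and 10.69, 9.77 and 10.59 in controls 1, 2 and 3, and on the other 3 Bptf probe sets the tumour labelled control 2 lay below every Bptf KD tumour. Values without it are therefore given for the endothelial identity genes, and for other lists and genes where leaving it out turns the sign, changes a call or moves the value by over 1.5 times. On its brightest probe set, Bptf differed by -0.63 log2 units over all 6 tumours and was not called (limma adjusted p = 0.371). Without the tumour labelled control 2 the difference was -0.92 and was called (limma adjusted p = 0.0305). The fit without that tumour called 4.46% of all genes, against 0.811% with all 6 tumours. The gap between the 3-prime and 5-prime Actb control probe sets, a sign of RNA quality, was 0.76 to 1.05 log2 units in Bptf KD tumours and 0.76 to 1.23 in controls, highest in the tumour labelled control 2.

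No endothelial identity gene passed the threshold, and the set as a whole had no common direction. Vwf and Plvap were lower in all 3 Bptf KD tumours than in every control, by 1.98-fold and 1.69-fold, while Cldn5 was higher in all 3, by 1.70-fold. In the other 7 genes, among them the pan-endothelial Pecam1 and Cdh5, the groups overlapped. By limma with Benjamini-Hochberg adjustment over 9248 genes, 0 of the 10 were called, against 0.811% of all genes, and 3 (1 higher, 2 lower) had an unadjusted p under 0.05, against 13.5% of all genes. Groups that do not overlap, 3 of 10 here, were found in 20% of all genes. The median difference of the 10 genes was 0.098 log2 units (6 positive, 4 negative), beside a median of 0.06 over all genes, of which 39.8% were negative. Without the tumour labelled control 2 it was -0.067 (3 positive, 7 negative), beside 0.042 over all genes, of which 43.9% were negative. Fewer endothelial cells and less RNA per cell cannot be told apart in whole tumour pieces.

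**Figure D1:**
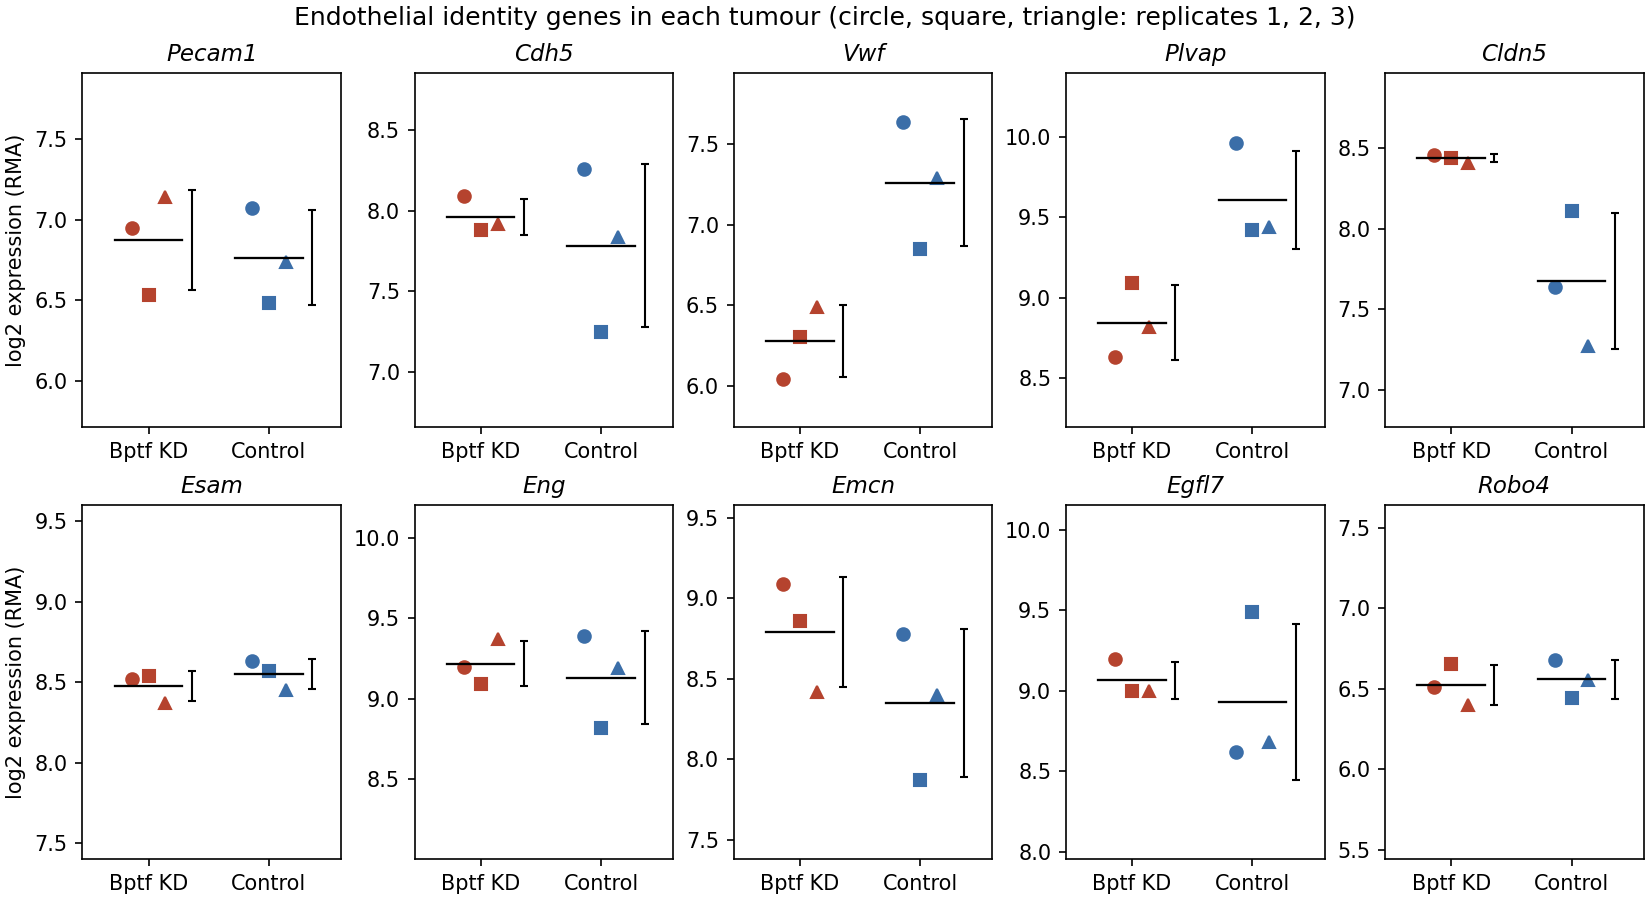
Log2 level of each endothelial identity gene (vertical axis, a span of 2.2 log2 units in every panel) in each Bptf KD and control tumour; symbols are replicates 1, 2 and 3, the line is the group mean and the bar its SD. The groups are apart for Vwf, Plvap and Cldn5 and overlap for the other 7 genes.

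Vwf encodes von Willebrand factor, the adhesive glycoprotein that endothelial cells store in Weibel-Palade bodies and that platelets also carry. Its log2 level was 6.04, 6.30 and 6.49 in Bptf KD tumours 1, 2 and 3, against 7.64, 6.85 and 7.29 in controls 1, 2 and 3. Every Bptf KD tumour lay below every control, and Bptf KD 1 lay below the dim level, so the size of the difference is uncertain. The means were 6.28 ± 0.23 in Bptf KD and 7.26 ± 0.40 in control tumours (SD, n = 3 each). The difference was -0.98 log2 units (95% interval -1.52 to -0.45), with a limma adjusted p of 0.129, and the exact permutation test (two-sided) gave 0.1, the smallest value that 3 tumours against 3 allow. Without the tumour labelled control 2 the difference was -1.19 and passed (limma adjusted p = 0.0229, within 0.00457 to 0.388 over the alternatives), in a fit that called 4.46% of all genes. Since that tumour had the lowest Vwf of the controls, leaving it out makes the difference larger. What lowered the p was not tested.

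Platelet genes were read beside Vwf. Of the 11 on the list 6 were above the dim level, and 0 passed or had an unadjusted p under 0.05 (13.5% of all genes had one). Their mean log2 level was 7.37 to 7.54 in Bptf KD tumours and 7.51 to 7.94 in controls, with a median difference of -0.18. The highest mean, 7.94, was that of the tumour labelled control 2, without which the median was -0.039. Ppbp, a platelet chemokine, differed by -0.61 and Pf4, platelet factor 4, by -0.21 (-0.15 and -0.33 without that tumour), while Itgb3 and Gp5 were below the dim level. The part of platelets in the Vwf difference was not tested.

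Plvap encodes the protein of the diaphragms of fenestrae and caveolae. Its log2 level was 8.63, 9.09 and 8.82 in Bptf KD tumours, against 9.96, 9.42 and 9.44 in controls 1, 2 and 3. All 3 Bptf KD tumours were below all 3 controls, with control 1 the highest. The means were 8.85 ± 0.23 in Bptf KD and 9.61 ± 0.31 in control tumours (SD, n = 3 each), a difference of -0.76 (95% interval -1.23 to -0.29) with a limma adjusted p of 0.172 and an exact permutation p of 0.1. Without the tumour labelled control 2 it was -0.85 and still did not pass (limma adjusted p = 0.0652). It passed with array weights alone among the alternatives (limma adjusted p = 0.0206, within 0.0206 to 0.496 over the alternatives), a fit that called 18.1% of all genes.

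Cldn5 encodes claudin-5, the tight junction protein that seals the endothelial border. Its log2 level was 8.46, 8.44 and 8.41 in Bptf KD tumours, against 7.64, 8.11 and 7.27 in controls 1, 2 and 3. The Bptf KD tumours were nearly level with each other and above every control, with control 2 the nearest. The means were 8.44 ± 0.025 in Bptf KD and 7.67 ± 0.42 in control tumours (SD, n = 3 each). The difference was 0.76 (95% interval 0.26 to 1.27), with a limma adjusted p of 0.199 and an exact permutation p of 0.1. Without the tumour labelled control 2 it was 0.98 and passed (limma adjusted p = 0.0214, within 0.00273 to 0.510 over the alternatives). The fit without that tumour called 4.46% of all genes. That tumour had the highest Cldn5 of the controls, so leaving it out makes the difference larger here too. What lowered the p of Cldn5 was not tested either.

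Cldn5 and Plvap differed in opposite directions. The log2 level of Cldn5 minus that of Plvap was -0.17, -0.65 and -0.41 in Bptf KD tumours and -2.32, -1.31 and -2.17 in controls 1, 2 and 3. Levels of different probe sets cannot be set against each other, so only the shift between tumours can be read from these values. The groups did not overlap, and the pair was chosen after its values were seen, so no test was made.

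Among the other junction and adhesion genes, Cdh5 encodes VE-cadherin, the cadherin of endothelial adherens junctions. Its brighter probe set read 8.09, 7.88 and 7.92 in Bptf KD tumours and 8.26, 7.25 and 7.84 in controls 1, 2 and 3. The highest and the lowest value were both controls. The difference was 0.18 (95% interval -0.42 to 0.78; limma adjusted p = 0.820) and turned to -0.087 without the tumour labelled control 2. The second Cdh5 probe set lay below the dim level in every tumour, at 4.93 to 5.20 in Bptf KD tumours and 4.20 to 4.95 in controls, and was called higher with array weights alone (0.75; limma adjusted p = 0.0223).

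Pecam1 encodes CD31, an adhesion molecule of endothelial cells, platelets and several leukocytes. Its 1 probe set read 6.95, 6.53 and 7.14 in Bptf KD tumours and 7.07, 6.48 and 6.74 in controls 1, 2 and 3. The groups overlapped throughout, with a difference of 0.11 (95% interval -0.40 to 0.62; limma adjusted p = 0.872) that became -0.032 without the tumour labelled control 2. Esam, an adhesion molecule of endothelial tight junctions and platelets, read 8.52, 8.54 and 8.37 in Bptf KD tumours and 8.63, 8.57 and 8.45 in controls. It spanned 0.26 log2 units over the 6 tumours, less than each other gene of the set. Its difference was -0.073 (95% interval -0.35 to 0.21, limma adjusted p = 0.844), and -0.063 without the tumour labelled control 2. A difference of more than 0.35 log2 units in Esam thus lies outside its interval, while for Cdh5 the interval is wide enough to hold a change of 0.78.

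**Figure D2:**
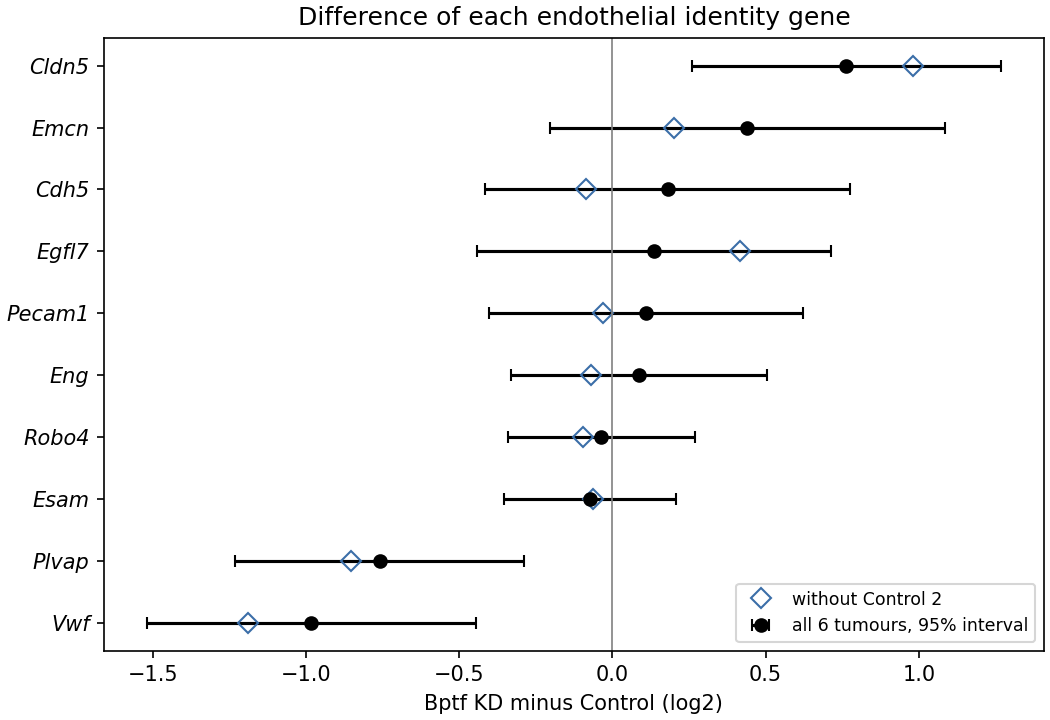
Bptf KD minus control in log2 units (horizontal axis) for each endothelial identity gene; dots with bars are limma estimates from all 6 tumours with 95% intervals, and open diamonds leave out the tumour labelled control 2. The intervals of Vwf, Plvap and Cldn5 do not hold 0, and the diamonds of Cdh5, Pecam1 and Eng lie on the other side of 0 from their dots.

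Of the surface receptors and sialomucins, Emcn differed most. It encodes endomucin, a sialomucin of venous and capillary endothelium. Its log2 level was 9.09, 8.86 and 8.42 in Bptf KD tumours, against 8.78, 7.87 and 8.40 in controls 1, 2 and 3. Bptf KD 1 and 2 lay above every control, Bptf KD 3 lay among them, and control 2 was the lowest. The difference of 0.44 (95% interval -0.21 to 1.09) did not pass (limma adjusted p = 0.566) and was 0.20 without the tumour labelled control 2.

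Eng encodes endoglin, a co-receptor for ligands of the TGF-beta family. Its brighter probe set read 9.20, 9.09 and 9.37 in Bptf KD tumours and 9.39, 8.82 and 9.19 in controls, and the other read 8.41, 8.27 and 8.66 in Bptf KD tumours and 8.77, 7.91 and 8.45 in controls. On both, control 1 was the highest and control 2 the lowest of the 6. The differences were 0.087 (95% interval -0.33 to 0.50; limma adjusted p = 0.877) and 0.070, and without the tumour labelled control 2 they were -0.070 and -0.16. Robo4, a receptor of the roundabout family that steadies the endothelial barrier, read 6.51, 6.65 and 6.40 in Bptf KD tumours and 6.68, 6.44 and 6.55 in controls. Its difference was -0.037 (95% interval -0.34 to 0.27; limma adjusted p = 0.935), and -0.095 without the tumour labelled control 2.

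Egfl7, a secreted factor of the endothelial matrix, was the member with most probe sets, and they did not agree on the order of the tumours. Its brightest probe set read 9.20, 9.0 and 9.0 in Bptf KD tumours and 8.62, 9.49 and 8.68 in controls 1, 2 and 3. Control 2 was the highest tumour on this and on 2 further probe sets, whose differences were 0.053 and 0.077 (0.26 and 0.30 without the tumour labelled control 2). On the last of the 4, Bptf KD tumours read 7.43, 7.28 and 7.32 and controls 6.98, 7.21 and 7.03, so that the groups did not overlap, as in 18% of all probe sets. That probe set differed by 0.27 and did not pass over all 22626 probe sets (limma adjusted p = 0.388), where 0.208% of probe sets were called. It passed with array weights (0.33; limma adjusted p = 0.0287). For the brightest the difference was 0.14 (95% interval -0.44 to 0.71; limma adjusted p = 0.861), and without the tumour labelled control 2 it was 0.42 (limma adjusted p = 0.0865). It is of a class of probe sets that can also bind related transcripts, as is 1 of the other 3.

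**Figure D3:**
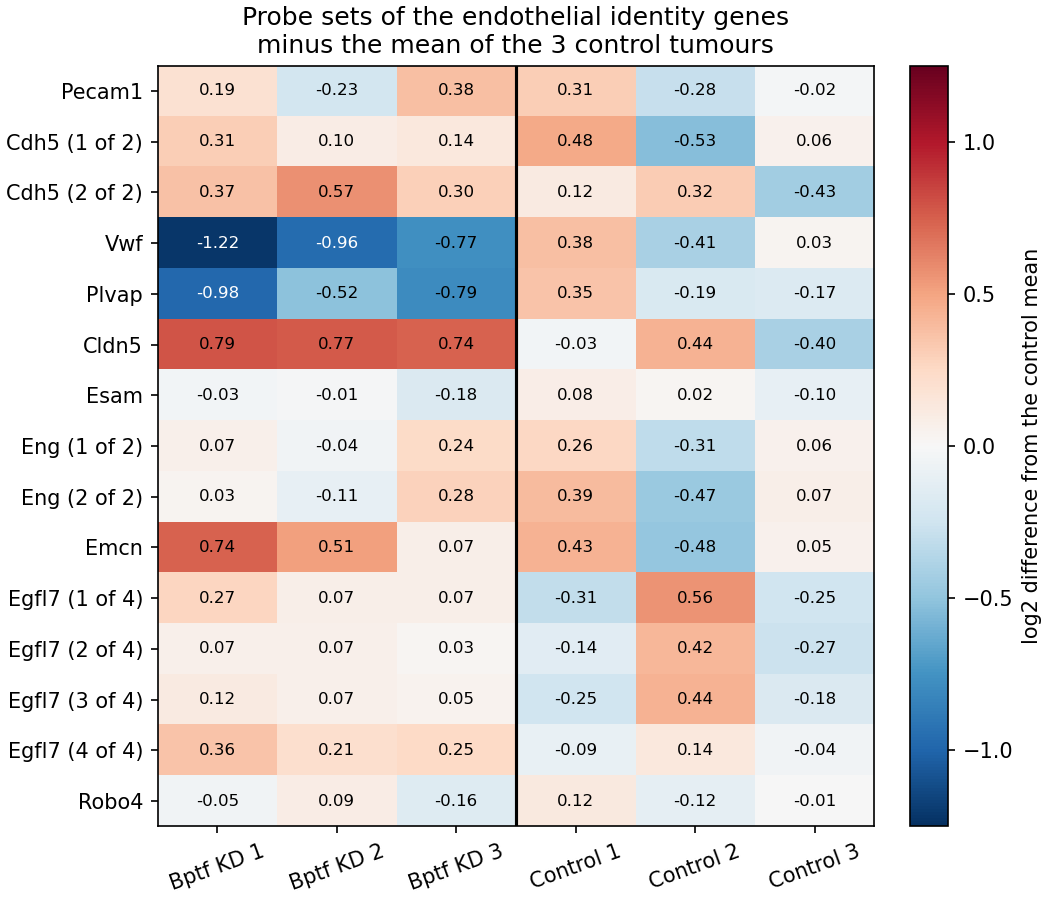
Log2 difference of each of the 15 probe sets (rows, brightest first within a gene) from the mean of the 3 controls, in each tumour (columns), with blue for lower and red for higher. Vwf and Plvap are lower and Cldn5 higher in all 3 Bptf KD columns, and control 2 departs from the other controls in Cdh5, Eng, Emcn and Egfl7.

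Counted per tumour against the mean of the 3 controls, 4 genes were lower and 6 higher in Bptf KD 1, 5 and 5 in Bptf KD 2, and 4 and 6 in Bptf KD 3. The share of all genes that lay lower was 40.8%, 42.0% and 41.1% in these tumours. Vwf was the lowest of the 10 differences in Bptf KD 1 (-1.22) and Bptf KD 2 (-0.96), and Plvap in Bptf KD 3 (-0.79), where Vwf stood at -0.77. Cldn5 was the highest in each of the 3, at 0.79, 0.77 and 0.74. Against controls 1 and 3 alone, the counts of lower and higher genes were 5 and 5, 5 and 4 (1 equal), and 6 and 4.

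Controls also differed among themselves. Control 1 was higher than the mean of the other 2 controls in 8 of the 10 genes, with a median of 0.42, and the tumour labelled control 2 was lower than the mean of controls 1 and 3 in 7, with a median of -0.35. The mean log2 level of the 10 genes was 8.03 to 8.07 in Bptf KD tumours and 7.93 to 8.27 in controls, so the Bptf KD range lay inside the control range.

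Further endothelial genes were read from lists of their own. Of 25 receptors and surface proteins, 20 were above the dim level, with a median difference of -0.11 and 9 positive. Tek, which encodes the angiopoietin receptor Tie2, fell: it read 5.65, 5.66 and 5.63 in Bptf KD tumours against 6.99, 6.79 and 7.06 in controls, a difference of -1.30 (limma adjusted p = 0.00986). All 3 Bptf KD values lie below the dim level, so the size is uncertain, and the call ended without any 1 of the Bptf KD tumours and without control 3 (limma adjusted p 0.0525 to 0.0812). Tie1, its partner receptor, read 6.0, 6.29 and 6.29 in Bptf KD tumours and 6.33, 5.96 and 6.22 in controls (0.023, and -0.082 without the tumour labelled control 2). Tek alone of the 20 was called. With the ordinary test, whose variance is not moderated, Tek and the other 8 genes named here as having passed all missed the threshold (limma adjusted p 0.110 to 0.234).

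Calcrl, the receptor for adrenomedullin in lymphatic and blood endothelium, differed by -0.94 and Cav1, the main coat protein of caveolae, by -0.78, with non-overlapping groups in both (limma adjusted p = 0.0991 and 0.126). Calcrl passed without the tumour labelled control 2 (-0.79; limma adjusted p = 0.0486). Adgrl4, an adhesion receptor of angiogenic endothelium, differed by 0.58 (limma adjusted p = 0.256). Kdr, the main VEGF receptor, differed by -0.24, Flt1 by 0.27, Cd93 by -0.097 and Clec14a by 0.047. These 4 differences were -0.36, 0.015, -0.28 and 0.28 without the tumour labelled control 2. Tie1, Kdr, Flt1, Cd93 and Clec14a were chosen after their values were seen.

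Several venous genes lay on the side of Vwf and Plvap. Of 8 venous and activated endothelial genes 7 were above the dim level. Their median was -0.36 (-0.58 without the tumour labelled control 2), and 5 were negative. Limma called 0, while 3 had an unadjusted p under 0.05, against 13.5% of all genes. Ackr1, a chemokine-binding receptor of venules, read 6.66, 6.88 and 7.11 in Bptf KD tumours, against 7.69, 7.77 and 7.94 in controls (-0.92; limma adjusted p = 0.0594). Selp, P-selectin, which is stored with von Willebrand factor in Weibel-Palade bodies and in platelets, read 7.24, 6.88 and 7.37 in Bptf KD tumours, against 8.47, 7.77 and 7.91 in controls (-0.89; limma adjusted p = 0.159). Aplnr, the apelin receptor of veins, differed by -0.83 (limma adjusted p = 0.105) and Ephb4, the venous ephrin receptor, by 0.39. In Ackr1, Selp and Aplnr every Bptf KD tumour lay below every control. Groups that do not overlap were found in 20% of all genes. All 3 genes passed without the tumour labelled control 2 (limma adjusted p = 0.0329, 0.0486 and 0.0396), in a fit that called 4.46% of all genes. Ackr1 also passed with a block for the replicate number (limma adjusted p = 0.0449). Sele, E-selectin, was below the dim level in every tumour.

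Arterial and tip cell genes differed in both directions. Of 12 genes 11 were above the dim level, with a median of 0.33, 6 positive and 0 called by limma. Of these, 2 had an unadjusted p under 0.05 (1 higher, 1 lower), against 13.5% of all genes. Without the tumour labelled control 2 the median was 0.077, since that tumour was the lowest of all in this list (mean log2 level 7.98 to 8.11 in Bptf KD tumours, and 7.54 in it). Esm1, a proteoglycan of sprouting tip cells, read 8.86, 8.75 and 8.27 in Bptf KD tumours, against 8.31, 6.43 and 7.99 in controls (1.05; 0.48 without the tumour labelled control 2). Cxcr4, a chemokine receptor, differed by 0.63, the Notch ligand Dll4 by 0.34 and the arterial connexin Gja4 by -0.53, and none of these 4 passed (limma adjusted p 0.163 to 0.410). Gja4 read 6.16, 5.90 and 6.19 in Bptf KD tumours, near the dim level, so the size of its difference is uncertain.

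**Figure D4:**
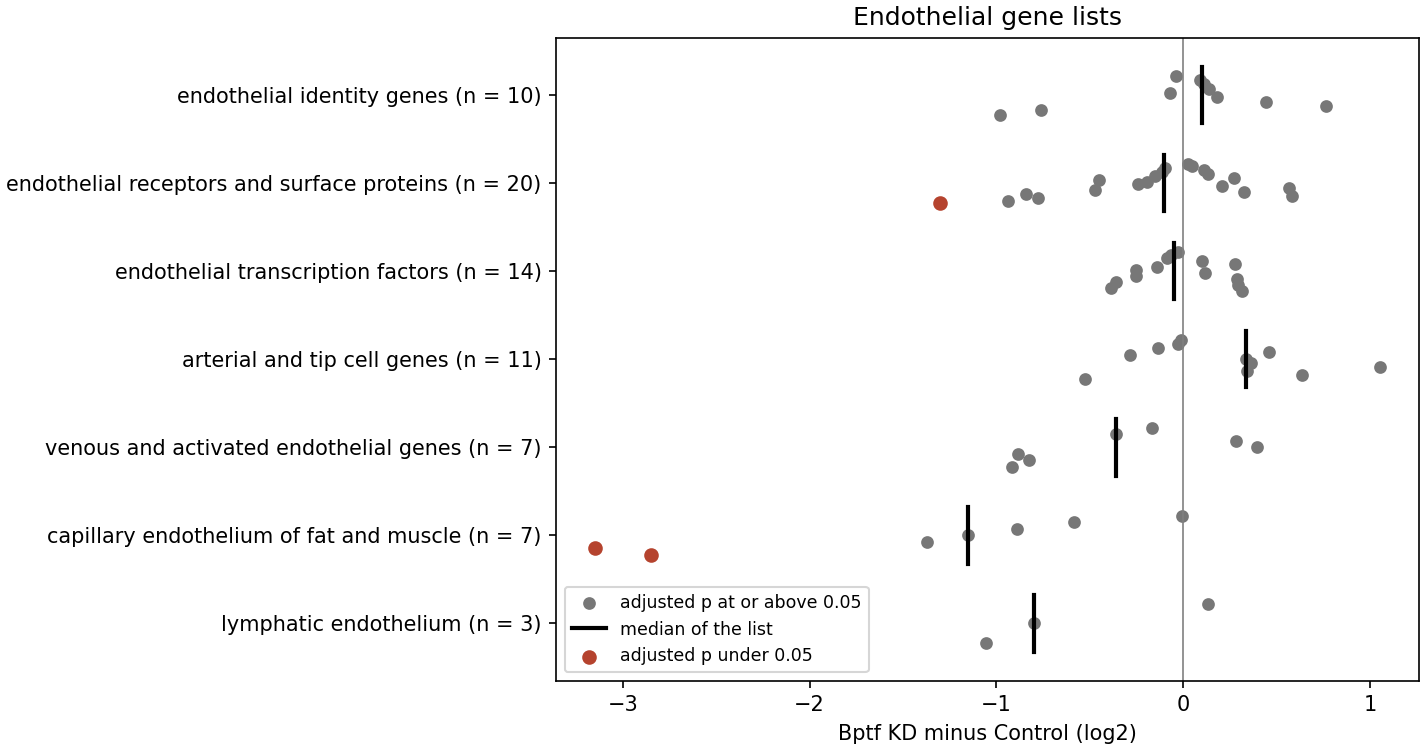
Bptf KD minus control in log2 units (horizontal axis) for each measured gene of the endothelial identity set and of 6 further endothelial lists (rows); red dots passed limma's threshold over all genes, grey dots did not, and black lines are list medians over all 6 tumours. The medians run from -1.15 for capillary endothelium of fat and muscle to 0.33 for arterial and tip cell genes, and Tek, Fabp4 and Cd36 are the 3 red dots.

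Among capillary genes of fat and muscle, 2 passed and both fell. All 7 measured of 8 had negative differences, with a median of -1.15. The one nearest 0, Tcf15 (-0.0067; chosen after its values were seen), was positive without the tumour labelled control 2 (0.072), which left 6 negative. Fabp4, a fatty acid binding protein, and Cd36, a fatty acid transporter, fell, with log2 differences of -2.85 and -3.15 (limma adjusted p = 0.00931 and 0.0281), and both are also abundant in adipocytes. Aqp1, a water channel of capillaries and red cells, differed by -1.37 (limma adjusted p = 0.0526; 0.0231 without the tumour labelled control 2) and Meox2, a homeobox factor of such capillaries, by -1.15. Beside them, the 8 measured of 11 adipocyte markers were all negative, with a median of -2.64 and 4 called lower. Their mean log2 level was 6.55 to 7.46 in Bptf KD tumours against 9.30 to 10.0 in controls, with Car3 at -3.66 and Retn at -2.62. Some of these markers lay below the dim level in every Bptf KD tumour, also among the 4 called, where a marker read 4.94, 5.69 and 5.38. Such markers passed the filter through the controls, so the size of their differences is uncertain. The call of Car3 ended without Bptf KD 3 (limma adjusted p = 0.0592) and that of Retn without any 1 of the Bptf KD tumours (limma adjusted p 0.0506 to 0.0812). The part of fat in the differences of endothelial genes was not tested. The call of Fabp4 ended without Bptf KD 1 (limma adjusted p = 0.0617) or 3 (limma adjusted p = 0.0812). That of Cd36 ended without any 1 tumour other than the one labelled control 2 (limma adjusted p 0.0506 to 0.141).

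Lymphatic genes were thinly covered, with 3 of 7 above the dim level and Prox1 and Reln below it. Lyve1, a hyaluronan receptor of lymphatics that some macrophages also carry, differed by -1.06 (limma adjusted p = 0.0692) and Pdpn, podoplanin, by -0.80, while Flt4, the receptor of VEGF-C, differed by 0.13. The list median was -0.80 and 0 were called. Lyve1 passed in 4 of 16 alternatives, among them without the tumour labelled control 2 (limma adjusted p = 0.0238).

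Endothelial transcription factors showed small differences. Of 15, 14 were above the dim level, with a median of -0.048, 6 positive and 0 called by limma. An unadjusted p under 0.05 was found in 0 of them, against 13.5% of all genes. The median turned to 0.058, with 9 positive and 5 negative, when the tumour labelled control 2 was left out. Hhex differed by 0.32, Klf4 by -0.39, Sox18, a factor of vessel and lymphatic development, by 0.29, and Nr2f2, the factor of vein identity, by -0.36. Without that tumour Sox18 differed by 0.17 and Nr2f2 by -0.58. Erg lay near the dim level, at 5.84 to 6.13 in Bptf KD tumours and 5.96 to 6.23 in controls.

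Partners of the members' proteins were read from 3 lists. Of 14 junction partners 11 were above the dim level, with a median of -0.017 (-0.12 without the tumour labelled control 2). Limma called 0, while 5 had an unadjusted p under 0.05 (3 higher, 2 lower), against 13.5% of all genes. Ocln, occludin, differed by 1.67 (limma adjusted p = 0.134) and Jup, plakoglobin, by 0.44. The junctional adhesion molecules Jam2 and Jam3 differed by -0.90 and -0.53, and Jam2 by -0.56 without that tumour. Jam3 read 6.08, 6.18 and 5.97 in Bptf KD tumours, near the dim level, so the size of its difference is uncertain. Epithelial cells also use Ocln and Jup, and of the 9 markers of tumour epithelium 8 were positive (median 0.52, mean log2 level 11.3 in every Bptf KD tumour against 10.1 to 11.1 in controls, 0 called), with Cldn4 at 1.86 and Cldn3 at 1.20. Cldn3 passed with a block for the replicate number (limma adjusted p = 0.0281) and Cldn4 without control 1 (limma adjusted p = 0.0381). The part of epithelium in these differences was not tested.

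Claudins other than Cldn5 are mostly epithelial. Of 19 on the list 5 were above the dim level, with a median of 1.20, 4 positive and 1 negative. Cldn2, a pore-forming claudin, rose by 2.26 log2 units (limma adjusted p = 0.00986), while Cldn7 differed by 1.12. The negative one was Cldn9 (-0.58, chosen after its values were seen). The call of Cldn2 ended without Bptf KD 1, Bptf KD 3 or control 3 (limma adjusted p 0.0525 to 0.0812).

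Receptors, effectors and targets of the pathway of Eng had a median of 0.19, with 9 of 12 positive and 0 called by limma. At an unadjusted p under 0.05, 4 were higher, against 13.5% of all genes in either direction. Id3, a target of BMP signalling, read 10.94, 11.45 and 11.28 in Bptf KD tumours, against 10.09, 10.27 and 10.43 in controls (0.96; limma adjusted p = 0.0664), and Id1, Smad6 and Tgfbr1 differed by 0.39, 0.51 and 0.39. Id3 passed with a block for the replicate number (limma adjusted p = 0.0498) and without the tumour labelled control 2 (limma adjusted p = 0.0405). These genes are expressed in many cell types besides endothelium.

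Of the 7 genes around Robo receptors, 4 were above the dim level, with a median of -0.28. Slit3, a secreted ligand of Robo receptors, fell: it read 7.04, 6.90 and 7.04 in Bptf KD tumours against 8.05, 7.85 and 8.26 in controls (-1.06; limma adjusted p = 0.0398). The call ended without any 1 tumour other than the one labelled control 2 (limma adjusted p 0.0672 to 0.176). Slit2 differed by -0.61, the receptor Unc5b, to which Robo4 binds, by 0.46 and Srgap2 by 0.057. Unc5b was lowest in the tumour labelled control 2, without which it differed by 0.077 and Srgap2 by -0.13.

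Mural, stromal and blood cell markers differed between the groups to different degrees. Of 10 pericyte and mural genes 9 were negative (median -0.33, mean log2 level 8.48 to 8.64 in Bptf KD tumours and 8.65 to 9.06 in controls, 0 called), with Notch3 at -0.54 and Rgs5 at -0.68. The highest mean was that of the tumour labelled control 2, without which the median was -0.17 with 7 negative and 3 positive, and Notch3 passed (limma adjusted p = 0.0336). All 10 fibroblast markers were negative (median -0.90, mean log2 level 10.3 to 10.6 in Bptf KD tumours and 11.5 to 11.7 in controls), and 4 fell, among them Dcn (-1.70) and Col1a1 (-1.81). The call of Dcn ended without any 1 of the Bptf KD tumours and without control 3 (limma adjusted p 0.101 to 0.160). That of Col1a1 ended without any 1 tumour other than the one labelled control 2 (limma adjusted p 0.0717 to 0.176) and with the mean of all probe sets (limma adjusted p = 0.103). Macrophage markers had a median of 0.23 (8 of 11 positive, mean log2 level 11.8 to 12.1 in Bptf KD tumours and 11.7 to 12.0 in controls, 0 called), with Mrc1 at -0.75 and C1qb at 0.40. Neutrophil markers had a median of 0.44 (4 of 10 above the dim level, 0 called), with S100a8 at 0.78 and S100a9 at 0.67. The median was 0.70 without the tumour labelled control 2, and S100a8 (1.29; limma adjusted p = 0.0459) and S100a9 (1.14; limma adjusted p = 0.0480) passed. Skeletal muscle markers had a median of -1.44, and -0.045 without the tumour labelled control 2, with 0 of 12 called, Pvalb at -2.17 and Tnnt3 at -1.44 (-0.91 and -0.47 without it). Their part in the endothelial differences was not tested. Without the tumour labelled control 2, in which muscle was highest, the differences of Vwf, Plvap and Cldn5 were -1.19, -0.85 and 0.98. The mean log2 level of muscle genes still varied among the remaining tumours. It was 6.11 to 9.53 in Bptf KD tumours, 9.13 in control 1 and 6.35 in control 3.

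Genes most like the mean of the 10 endothelial genes over the 6 tumours, by the highest Pearson r among all genes tested, were Trim30a (r = 0.986), Stat2 (0.978), Msantd2 (0.977), Nbea (0.970), Rgs11 (0.968) and Ifnz (0.956), with Spearman rho of 0.714 to 0.986. They were picked for this likeness from 9238 genes, so r is a description over 6 tumours and has no test. The mean profile was highest in control 1 and lowest in the tumour labelled control 2. It had an SD of 0.12 log2 units over the 6 tumours, and none of these 6 genes is on an endothelial list.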

How the data were processed

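Members and gene lists were chosen with earlier results of these data known. The authors deposited log2 levels computed with RMA (background correction, quantile normalisation, summary by probe set). RMA is named by the submitters' processing notes without a version. Base 2 was taken because it is RMA's scale. Of 22690 probe sets 64 are manufacturer's controls, 20380 had 1 gene in GEO's platform annotation and 691 several, and symbols were updated through Entrez identifiers with a RefSeq table (GRCm38.p6, names only). RMA gives no detection call, and the number of arrays limits precision.

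Each gene was read from its probe set of highest mean over 6 arrays, and those in the lowest 30% were left out. Bptf KD minus control was fitted with limma 3.58.1 in R 4.3.3 (lmFit, eBayes, 2 groups) over 9248 genes, and separately over 22626 probe sets, with Benjamini-Hochberg adjustment and a threshold of 0.05. The procedure was tested on simulated data. Adjusted p-values are limma's, except those of the ordinary t-test, and intervals are at 95%. Permutation tests were exact and two-sided. The labels call the tumours biological triplicates. The sources used here do not say if each had a mouse of its own.

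Named genes were all members, Bptf, up to 4 genes of smallest p per list, and the 6 genes most like the members. The lists cover endothelial classes, partners of the members and markers of other cells. Alternatives varied the filter, the probe set, the normalisation and the variance model, used the replicate number as a block, and left out each tumour in turn.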

Additional observations from a re-analysis of the deposited data

How the results depend on the processing

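Over 16 alternatives, Vwf and Plvap kept negative and Cldn5 and Emcn positive differences in each in which they were measured; the stricter filter left out Vwf, Pecam1 and Robo4. With array weights, whose fit stopped before it converged, Cldn5 was called higher and Vwf and Plvap lower (1 and 2 members; 986 and 690 genes; 1743 and 1432 probe sets), as were the dim Cdh5 probe set and the last of Egfl7 (0.75 and 0.33, both higher). Of 59 other named genes, 9 were called in the reported fit; array weights added 29, the fit without the tumour labelled control 2 added 10, and the ordinary test ended all 9. Leaving out 1 tumour gave 0 to 1 member called in each direction, 0 to 179 genes higher and 0 to 233 lower, 0 to 208 probe sets higher and 0 to 335 lower, and a members' median of -0.067 to 0.16. The main counts were 14 and 61 genes and 3 and 44 probe sets. Genes called were 5 and 37 with the stricter filter and 0 and 1 with the ordinary test, which called 0 probe sets in either direction; without moderated variance Vwf had an adjusted p of 0.324. The probe set with the largest SD and a second quantile normalisation each gave 9 genes higher, and median centring 6 probe sets higher. The cause of these changes was not tested.

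Signs of small differences turned. Over the 6 fits that each leave out 1 tumour, differences ran from -0.032 to 0.28 for Pecam1, -0.087 to 0.42 for Cdh5, -0.070 to 0.22 and -0.16 to 0.27 for the brighter and the other probe set of Eng, -0.10 to 0.025 for Robo4 and, on the first 3 probe sets of Egfl7, -0.018 to 0.42, -0.083 to 0.26 and -0.050 to 0.30. They ran from -0.13 to 0.16 for Srgap2, -0.087 to 0.13 for Trim30a, -0.16 to 0.18 for Stat2, -0.19 to 0.37 for Msantd2, -0.18 to 0.13 for Nbea, -0.19 to 0.44 for Rgs11 and -0.37 to 0.19 for Ifnz. Array weights turned Esam (0.00038, and 0.0069 among probe sets), the second Eng probe set (-0.022), Srgap2 (-0.083), Pvalb (0.11), Trim30a (0.062), Stat2 (0.046) and Nbea (0.018). The mean of all probe sets turned Srgap2 (-0.040), Trim30a (0.027) and Stat2 (0.028), the probe set with the largest SD Flt4 (-0.087) and Trim30a (0.063), and a second quantile normalisation Msantd2 (-0.034).

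With the replicate number as a block, 92 genes were lower, and 6 probe sets were higher and 71 lower, with 0 members called. Deviations of same-numbered tumours correlated at 0.0054, 0.28 and 0.37, so the numbers are not taken as pairs, and not every tumour correlated best with its own number.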
